A study of Mus musculus with 2 samples.

Results

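The S100 calcium-binding protein family was followed in single cells of mouse retina after lipopolysaccharide (LPS), the bacterial membrane component that triggers innate inflammation, had been placed in the vitreous. The 10 members described are S100a8, S100a9, S100a1, S100a4, S100a6, S100a10, S100a11, S100a13, S100a16 and S100b. They were picked by symbol from the 32245 gene symbols of both count matrices. The files hold 7 other S100 genes, of which 6 were listed for comparison and S100a2 (9 control and 38 knockout UMIs) was counted after its values were seen.

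There were 2 libraries of 10x Genomics 3′ single-cell RNA-seq, 1 per group, each made from 6 pooled retinas. Every eye received 0.5 µg of LPS. The control mice were Atg5fl/fl, with a floxed allele of Atg5 (an autophagy gene) and no Cre. The knockout mice were GLAST-CreER; Atg5fl/fl and also received 4-hydroxy-tamoxifen, which switches on a Cre driven by the promoter of the glial glutamate transporter GLAST (Slc1a3), so genotype, Cre and drug cannot be told apart. Both groups carry the floxed allele and both had LPS, so neither shows the uninflamed retina. The labels state no age, sex or delay after injection.

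After filtering, 8273 control cells and 4661 knockout cells remained, with medians of 1396 and 6808 unique molecular identifiers (UMIs, 1 per captured transcript) per cell. The libraries shared 15 cell barcodes. Müller glia-like cells made up 4.18% of control cells and 11.9% of knockout cells, and rod-like cells 35.5% and 7.66%. Atg5 itself stood at 19.4 CPM (101 UMIs; a gene's UMIs per 1000000 UMIs of the class) in control and 18.1 CPM (198 UMIs) in knockout Müller glia-like cells, within each other's counting intervals. The counts are read from transcript 3′ ends, so they check the deletion only if it removes that end, which the labels do not state. With 1 library per group no difference has a replicate check and no p-value is given. All intervals are 95% intervals that cover counting error only.

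S100 proteins are small calcium sensors that change shape when calcium binds and then grip partner proteins. S100a8 and S100a9 pair to form calprotectin, the main cytosolic protein of neutrophils, which once released acts on Tlr4 and Ager (the receptor RAGE). S100a10 is the exception that no longer binds calcium and instead holds annexin A2 (Anxa2) at membranes. S100a4 binds non-muscle myosin, S100a13 helps release Fgf1, S100a1 is best known in muscle, and S100b is a classical marker of astrocytes.

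The genes sit close together. In the GENCODE annotation of GRCm38 (mm10), 9 of the 10 members lie on chromosome 3 and S100b lies at chr10:76253853-76261159. S100a8 (chr3:90668978-90670035, plus strand) and S100a9 (chr3:90692632-90695721, minus strand) are neighbours, and S100a1 (chr3:90511034-90514392, minus strand) and S100a13 (chr3:90514435-90524581, plus strand) stand head to head. S100a16 is at chr3:90537254-90543151, S100a4 at chr3:90603771-90606045, S100a6 at chr3:90612882-90624181, S100a11 at chr3:93520488-93526287 and S100a10 at chr3:93555080-93564643. S100a4 overlaps the predicted gene Gm42674 on the same strand and S100b overlaps Dip2a on the other strand, and the sources do not state if counting used strand.

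The sequences just upstream of the neutrophil pair are shown because both genes peaked in the same cell class, and the gap between S100a1 and S100a13 because these neighbours share it and yet differed in vessel cells and cones. Only bases upstream of the GENCODE transcript start are printed. All are reference sequence (RefSeq promoter table, GRCm38.p6, which held 9 of the 10 members), read 5′ to 3′ on the strand of the named gene, with motif matches in capitals.
S100a8 upstream, chr3:90668821-90668977, plus strand: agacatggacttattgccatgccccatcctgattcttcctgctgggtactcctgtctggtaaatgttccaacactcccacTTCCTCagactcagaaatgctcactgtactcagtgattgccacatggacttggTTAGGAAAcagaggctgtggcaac
S100a9 upstream, chr3:90695722-90695971, minus strand: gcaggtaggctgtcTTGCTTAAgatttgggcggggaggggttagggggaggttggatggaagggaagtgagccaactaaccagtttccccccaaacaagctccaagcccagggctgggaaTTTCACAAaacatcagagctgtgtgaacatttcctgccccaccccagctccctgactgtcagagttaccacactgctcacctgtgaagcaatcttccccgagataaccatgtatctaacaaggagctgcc
Gap between S100a1 and S100a13, chr3:90514393-90514434, plus strand: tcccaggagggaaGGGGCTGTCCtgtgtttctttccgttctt

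Both strands were searched for TTNCNNAA (C/EBP, factors of the myeloid lineage), GAGGAA (PU.1), TGANTCA (AP-1), where N is any base, and for the NF-κB motif GGG and CC with 5 free bases between. The 157 bases before S100a8 held 1 C/EBP match (TTAGGAAA) and 1 PU.1 match (TTCCTC). The 250 bases before S100a9 held 2 C/EBP matches (TTGCTTAA and TTTCACAA). The 42 bases of the gap held 1 NF-κB match (GGGGCTGTCC). Such letters are common. For comparison, windows of the same length were cut from the 5′ end of 32851 promoter sequences. Of these, 27.1% (157 bases) and 36.8% (250 bases) held a C/EBP match, 15.3% (157 bases) a PU.1 match and 6.75% (42 bases) an NF-κB match. The S100a8 and S100a9 windows also start at that end of their promoter sequences. The gap was cut by its own coordinates, so its comparison is matched for length only. No matches overlapped, and a match is a description of the letters only.

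S100a8 and S100a9 were genes of the neutrophil-like cells. Of all S100a8 UMIs, 95770 of 106363 in the control library (90.04%, interval 89.9 to 90.2) and 89284 of 98366 in the knockout library (90.8%, interval 90.6 to 90.9) lay in the 224 and 164 neutrophil-like cells. For S100a9 the shares were 89.96% (89.8 to 90.1) and 91.6% (91.4 to 91.8). S100a8 stood at 51574 CPM in control and 68403 CPM in knockout neutrophil-like cells, and S100a9 at 56564 and 77207 CPM, so the pair together reached 108139 and 145610 CPM. The class was named without any S100 gene, from 14 other markers, which summed to 12249 and 16573 CPM in it and to 25.0 and 11.5 CPM in Müller glia-like cells. The plot of levels by class shows this step of the pair between neutrophil-like cells and all others.

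**Figure D1:**
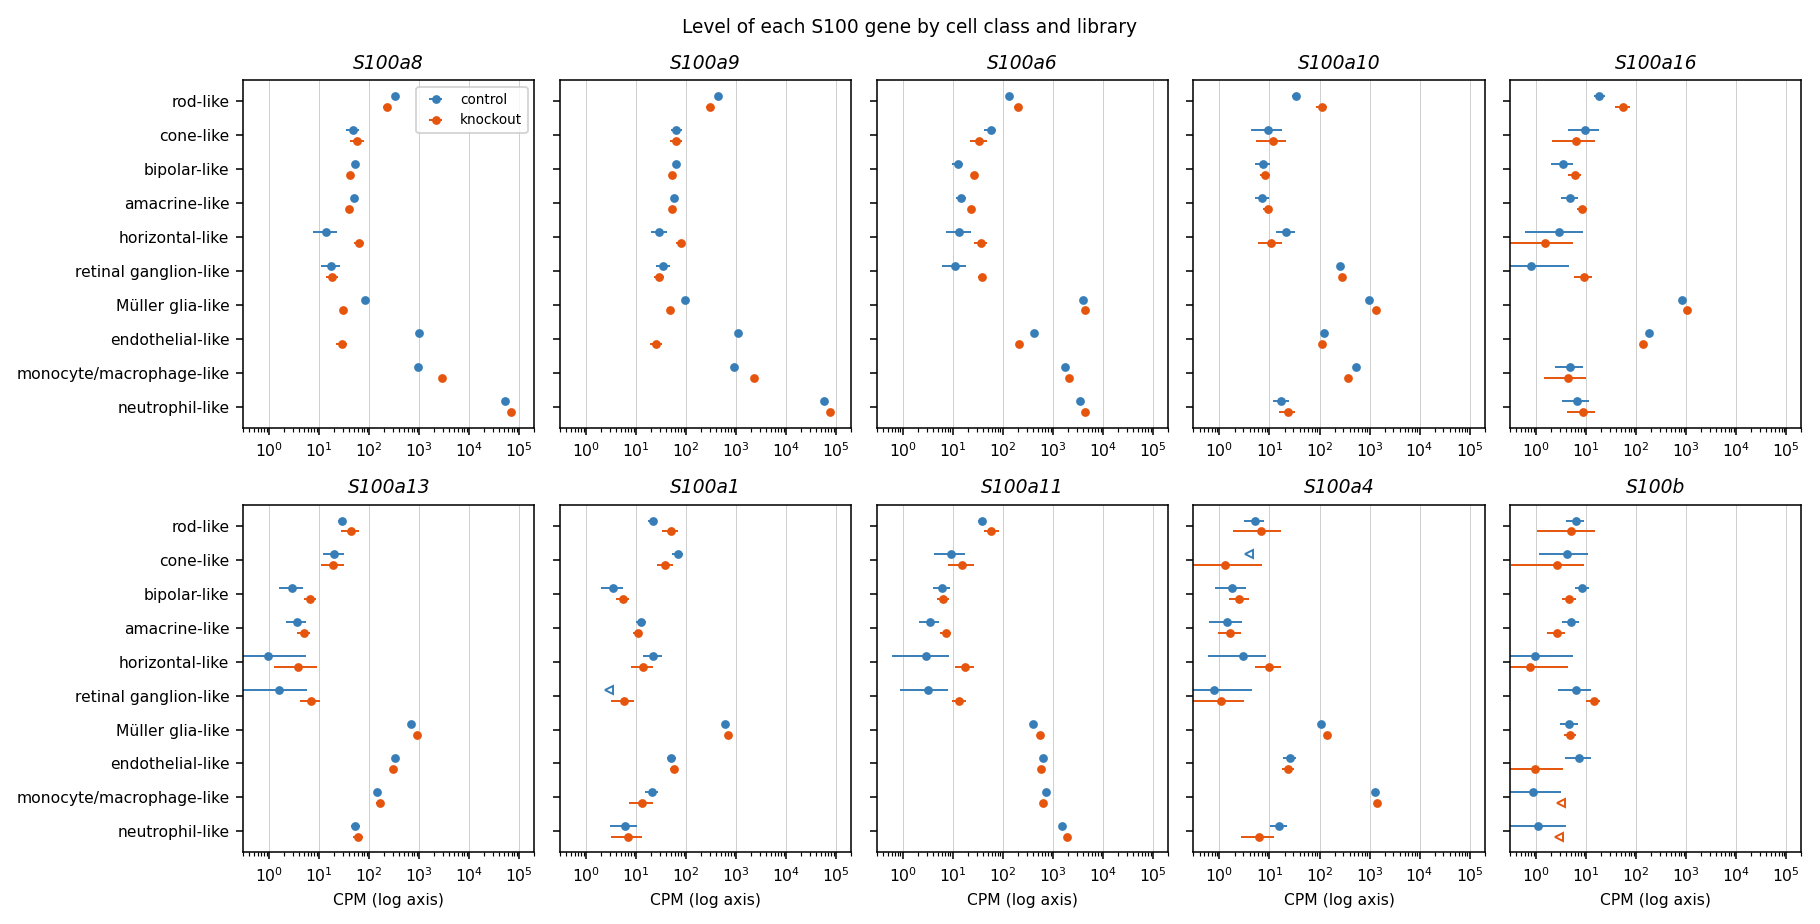
CPM of each S100 gene (log axis) in 10 marker-named cell classes, control in blue and knockout in orange, with bars for the exact Poisson interval of the summed UMIs (bars that pass the left edge are clipped) and open triangles for the upper limit where no UMI was counted. S100a8 and S100a9 reach 51574 CPM or more in neutrophil-like cells, S100a6, S100a10, S100a16, S100a13 and S100a1 reach 610 CPM or more in Müller glia-like cells, and S100b stays under 15 CPM in all 10 classes.

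Outside the neutrophil-like cells the pair was found at a median of 1 UMI per cell in the neurons, Müller glia-like and endothelial-like cells. In droplet data, RNA set free by broken cells can enter droplets whatever the cell's own depth. Its part in these values was not tested. Rod-like cells with a median of 1102 (control) and 987 (knockout) UMIs held 0.891 and 0.810 UMIs of S100a8 plus S100a9 per cell once the 5 cells with most were left out. Retinal ganglion-like cells, with medians of 30753 and 36018 UMIs, held 1.24 and 1.44. Over 20 combinations of class and library (6 neuron classes, Müller glia-like and endothelial-like cells, the unnamed rod-like cluster 0 and the pooled unnamed inner-retina clusters) the value ran from 0.714 to 1.44 per cell, a 2.02-fold range, while median depth ranged 41.7-fold. The narrow range holds only without the top cells. With them, the mean ran from 0.743 (knockout cluster 0) to 69.4 (control endothelial-like), and was 4.79 in knockout horizontal-like cells. Outside these 20 and the neutrophil-like cells, monocyte- and macrophage-like cells held 13.02 (control) and 7.28 (knockout) per cell. The unnamed non-neuronal cluster 10 held 16.09 and 24.36, cluster 8 held 2.34 and 1.95 and cluster 7 held 1.28 and 0.71. Control T and NK-like cells held 0.308 and control pericyte-like cells 0.25. The choice to leave out these groups of cells was made with the data in view.

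A near constant number per cell gives a CPM that depends on depth. In control cells the pair stood at 763 CPM in the shallow rod-like cells, at 108 to 116 CPM in amacrine-, cone- and bipolar-like cells and at 52.4 CPM in the deep retinal ganglion-like cells. Müller glia-like cells (177 CPM) and endothelial-like cells (2098 CPM) stood above this order, with 1 cell of 540 and 1 cell of 2163 pair UMIs; without the 5 top cells they held 1.04 and 0.960 per cell. The share of control cells with an S100a8 UMI was 30.2% in rod-like, 33.4% in bipolar-like, 38.7% in amacrine-like and 37.3% in Müller glia-like cells. After thinning every cell to 1000 UMIs it was 24.99%, 5.30%, 9.16% and 4.98%, over the 1825, 566, 524 and 321 cells that were deep enough. It was 0 in the 31 horizontal-like and 39 retinal ganglion-like cells then, which allows up to 9.68% and 7.69% of cells with a UMI at that depth; unthinned, 32.3% and 43.6% of them had one. The thinned Müller share was below those of bipolar- and amacrine-like cells. Those cells were shallower, with control medians of 8456 and 7496 UMIs against 14320. At a near constant number per cell, thinning takes more from deeper cells, so these shares cannot be compared apart from depth. The part of free RNA in them was not tested. In neutrophil-like cells the shares were 96.9% before and 94.5% after thinning.

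S100a6 behaved differently over the same classes. Without its 5 top cells it ran from 0.0899 UMIs per cell (bipolar-like, control) to 82.9 (Müller glia-like, knockout), a 921-fold range that did not follow depth.

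**Figure D2:**
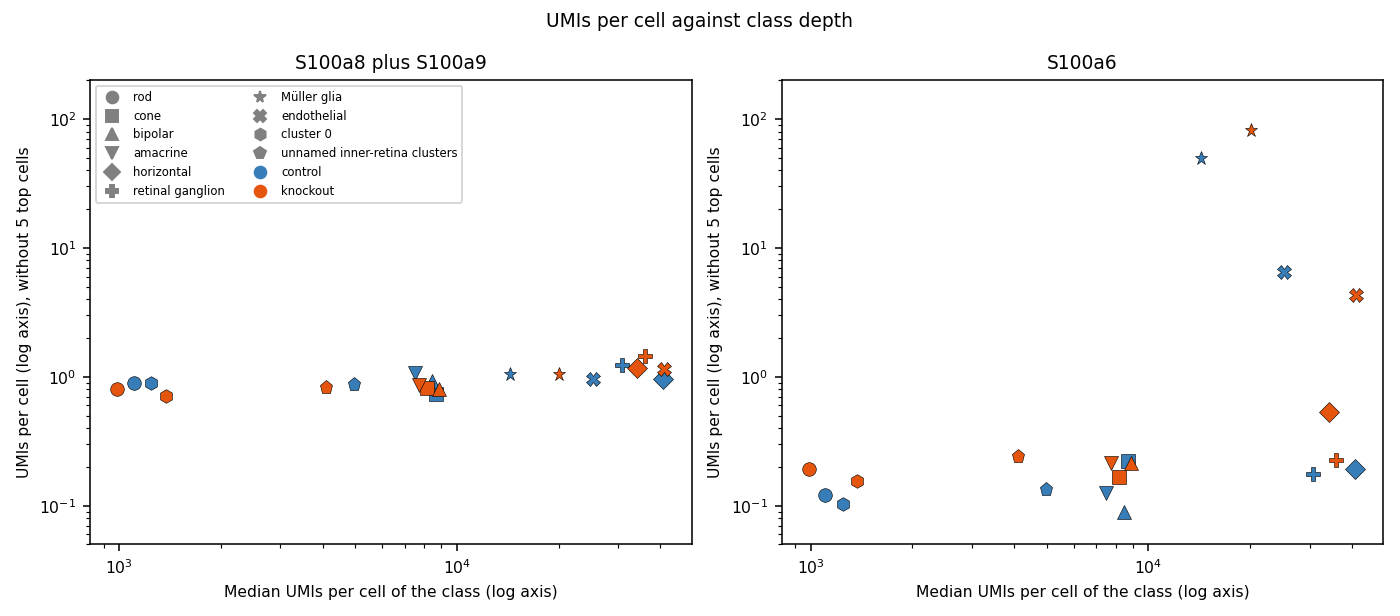
UMIs per cell, without the 5 cells with most in each class and library, against the median UMIs of the class (both axes log), for S100a8 plus S100a9 on the left and S100a6 on the right, with 1 symbol per class and colour for the library. Over these 20 points the pair lies between 0.714 and 1.44, while S100a6 spreads from 0.0899 to 82.9.

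The mix of the pair was compared with that of neutrophils. S100a9 made up 52.3% (52.1 to 52.5) of the pair in control and 53.0% (52.8 to 53.2) in knockout neutrophil-like cells. It made up 56.9% (55.1 to 58.8) in control rod-like cells, 55.4% (51.2 to 59.5) in bipolar-like cells and 53.8% (49.8 to 57.8) in amacrine-like cells. In Müller glia-like cells it was 54.0% (50.7 to 57.2) in control and 61.7% (58.3 to 65.0) in knockout cells. The rod-like and the knockout Müller values lie above the neutrophil interval, so the mix was not identical. So do those of control retinal ganglion-like cells (66.7%, 54.0 to 77.8), knockout amacrine-like cells (57.2%, 53.9 to 60.5) and cluster 0 (56.6% and 59.0%), while control cells of the unnamed non-neuronal cluster 7 lay below it (40.7%, 36.5 to 45.0).

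In the glia, the vessels and some neuron groups single cells carried much of the pair. Knockout horizontal-like cells had 4.79 pair UMIs per cell with and 1.18 without their top 5 cells. The control unnamed inner-retina clusters had 1.32 and 0.882, and control rod-like cells 0.974 and 0.891. In control Müller glia-like cells 250 of 423 S100a8 UMIs, and in knockout ones 106 of 328, lay in 1 cell. In control endothelial-like cells 967 of 1816 S100a8 UMIs lay in 1 cell, and without the top 5 cells the level fell from 998 to 8.47 CPM. The unnamed non-neuronal cluster 10, with Müller genes and neutrophil genes together (16 control and 58 knockout cells), held S100a8 at 7092 and 2398 CPM. The part of doublets in these values was not tested.

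Many monocyte- and macrophage-like cells held S100a8 nearly without S100a9, although over the whole class S100a9 made up 49.5% of the pair in control and 44.9% in knockout. Without the 5 cells with most of the pair it made up 9.90% (8.25 to 11.8) and 24.8% (20.2 to 29.8). Among cells with at least 10 UMIs of the pair, S100a9 made up under 20% in 21 of 27 control and 9 of 14 knockout monocyte- and macrophage-like cells, against 3 of 206 and 0 of 161 neutrophil-like cells (the 20% bound was chosen after the values were seen). These 30 cells held a median of 21 S100a8 UMIs (10 to 303) and 1 S100a9 UMI (0 to 75), and 11 of them had no S100a9 at all. They carried 29 to 727 UMIs of Lyz2, the lysozyme of myeloid cells, and none of Retnlg, a gene of mature neutrophils that was also at 0 in 137 of the 388 neutrophil-like cells. Their 14 neutrophil markers, some of which monocytes share, summed to 6 to 112 UMIs per cell.

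Among cells with at least 10 UMIs of the pair, the same mix was found in 2 of 4 control and 0 of 2 knockout endothelial-like cells. The 1 such control pericyte-like cell had it too. So did a few cells of the unnamed non-neuronal cluster 8. This cluster has Müller genes beside very high Lcn2 (lipocalin 2, an iron-trapping acute-phase protein), Chil1 and Orm1. Of its cells with at least 10 UMIs of the pair, 1 of 3 in control and 4 of 5 in knockout were poor in S100a9. The cell with most, which holds 206 of the 329 knockout S100a8 UMIs of the cluster, had 0 of S100a9 and 0 of the neutrophil markers, beside 9517 of Lcn2 and 64 of Glul (glutamine synthetase, a Müller enzyme). In the plot of single cells the S100a9-poor cells of cluster 8 lie with the monocyte- and macrophage-like cells, along the S100a8 axis.

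**Figure D3:**
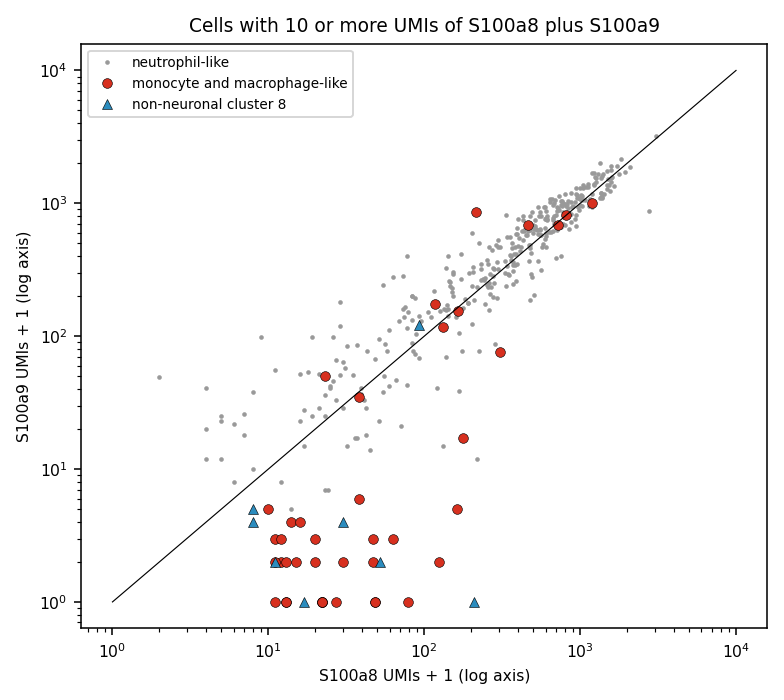
S100a8 against S100a9 UMIs per cell (each plus 1, both axes log) in cells with 10 or more UMIs of the pair, both libraries together; the line marks equal counts. Neutrophil-like cells (grey) follow the line, 30 of 41 monocyte- and macrophage-like cells (red) and 5 of 8 cells of cluster 8 (blue) lie far below it.

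S100a6 had the highest CPM of the members in Müller glia-like cells (1 UMI counts 1 transcript end, so CPM does not grow with gene length), which were recognised by 14 markers without any S100 gene. These are the radial glia that span the retina and react to injury. S100a6 (calcyclin, which binds Cacybp and annexins) stood at 3972 CPM (3918 to 4027; 20652 UMIs) in control and 4355 CPM (4316 to 4394; 47672 UMIs) in knockout cells, and 85.5% and 96.2% of cells had a UMI. It was at a like level in neutrophil-like cells (3524 and 4485 CPM), lower in monocyte- and macrophage-like cells (1763 and 2069 CPM) and at 413 and 215 CPM in endothelial-like cells. No neuron class passed 201 CPM. High levels were thus shared by glia and myeloid cells.

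S100a16 separated the glia from the myeloid cells. It stood at 807 CPM (783 to 832) and 1053 CPM (1034 to 1072) in Müller glia-like cells, at 182 and 134 CPM in endothelial-like cells, and at 4.80 and 4.33 CPM in monocyte- and macrophage-like cells. Neutrophil-like cells had 6.46 and 8.43 CPM. The myeloid levels rest on 5 to 12 UMIs each, and bipolar-like cells had 3.43 and 5.97 CPM.

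S100a1 and S100a13, the head-to-head neighbours, were both glial but parted elsewhere. In Müller glia-like cells S100a1 stood at 610 and 683 CPM and S100a13 at 683 and 895 CPM. In endothelial-like cells S100a13 stood at 325 CPM (299 to 352) and 299 CPM (277 to 324), and S100a1 at 51.1 CPM (41.3 to 62.6) and 57.8 CPM (48.1 to 69.0). Monocyte- and macrophage-like cells had 141 and 161 CPM of S100a13 and 20.96 and 12.98 CPM of S100a1. The 2 libraries gave the same order in each of these classes.

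Cone-like cells had the most S100a1 of the neuron classes in control, and more than the glial mix of S100a1 to S100a6. S100a1 stood at 68.6 CPM (53.1 to 87.3) in control and 38.3 CPM (25.8 to 54.7) in knockout cone-like cells, in 29.1% and 16% of cells. Set against S100a6 in the same cells, this was 7.82 (6.04 to 9.94) and 7.36 (4.96 to 10.5) times the ratio found in Müller glia-like cells of that library. In rod-like cells the same measure was 1.04 (0.823 to 1.29) and 1.55 (1.04 to 2.23), close to the glial mix. Other neurons shared the trait in part: amacrine-like cells gave 5.58 (4.37 to 7.03) and 2.95 (2.41 to 3.57), and horizontal-like cells 10.7 (6.78 to 16.1) and 2.39 (1.42 to 3.78) on 23 and 18 UMIs. After thinning to 1000 UMIs the share of cone-like cells with S100a1 was 4.50% and 4.12%, against 0.530% and 0.340% of bipolar-like cells.

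S100a10 was highest in Müller glia-like cells, at 976 and 1366 CPM, followed by monocyte- and macrophage-like cells at 524 and 377.4 CPM and T and NK-like cells at 456 CPM (18 control cells) and 411 CPM (7 UMIs in 2 knockout cells). Among the neurons it stood out in the retinal ganglion-like cells, the output neurons of the retina. Retinal ganglion-like cells had 257 CPM (230 to 287; 324 UMIs in 39 cells) and 278 CPM (259 to 298; 787 UMIs in 80 cells). The other inner-retina neurons and cones lay between 7.03 and 21.3 CPM in both libraries, and rod-like cells at 34.1 and 110 CPM. A UMI was found in 79.5% and 75% of retinal ganglion-like cells, and in 17.9% and 26.2% after thinning, against 0.707% and 1.13% of bipolar-like cells. Against S100a6, S100a10 was 94.2 (84.2 to 105) and 22.6 (21.1 to 24.2) times the Müller ratio there; 89 of the 111 knockout S100a6 UMIs lay in 1 cell. No single cell held more than 34 of the S100a10 UMIs in this class. Its partner Anxa2 was at 65.9 and 61.8 CPM in retinal ganglion-like cells and at most 18.2 CPM in the other neuron classes.

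S100a4 and S100a11 were higher in myeloid cells than in the glia, each in a different class. S100a4 stood at 1263 CPM (1217 to 1309) and 1401 CPM (1334 to 1471) in monocyte- and macrophage-like cells, at 107 and 141 CPM in Müller glia-like cells, and at 15.6 CPM (20 of 29 UMIs in 1 cell) and 6.13 CPM in neutrophil-like cells. S100a4 thus parts the myeloid classes that S100a6 joins. S100a11, which binds annexin A1, stood at 1524 and 1912 CPM in neutrophil-like, 715 and 627 in monocyte- and macrophage-like, 643 and 585 in endothelial-like and 402 and 560 CPM in Müller glia-like cells.

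S100b was near the detection limit. Over all kept cells it had 190 control UMIs and 210 knockout UMIs, and Müller glia-like cells held 4.62 CPM (2.96 to 6.87) and 4.84 CPM (3.63 to 6.33), where bipolar-like cells held 8.27 and 4.60 CPM. Only 8 cells had 5 or more S100b UMIs, and these were looked at after the values were seen. In 5 of them, all knockout, 5 to 8 S100b UMIs came with 5 to 12 of Pax2 and 21 to 92 of Gfap, which mark astrocytes, and with 1 to 7 of Rlbp1, a Müller gene with a median of 3 in Müller glia-like cells. Of these cells 4 were within the Müller glia-like class and 1 in cluster 10, and no astrocyte class was named. The cell with most, a knockout retinal ganglion-like cell with 36 S100b UMIs, had none of Pax2 or Gfap and 63 of the ganglion cell gene Rbpms. Müller glia-like cells with 2 or more Pax2 UMIs (2 control, 4 knockout) held S100b at 97.2 and 119 CPM, the rest of the class at 3.13 and 2.61 CPM.

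The genes most like each member over 8 classes in both libraries (16 profiles, Pearson r of log2(CPM + 5) over 12723 genes) are given as a description; the profiles share depth and free RNA. They were Wfdc21 for S100a8 (r = 0.99) and S100a9 (0.99), Cd9 for S100a6 (0.98), Kdelr3 for S100a16 (0.98), Oat for S100a1 (0.96), Ccl2 for S100a13 (0.96), Cxcl16 for S100a10 (0.96), Ifitm2 for S100a11 (0.99) and Mmp14 for S100a4 (0.97). For S100b the nearest was Brf2 (0.85), at levels near the detection limit.

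The comparison of knockout with control Müller glia-like cells sets the family side by side in the cells in which the GLAST promoter drives Cre. The glial members were somewhat higher in the knockout library: S100a10 1.40-fold (1.36 to 1.45), S100a11 1.39 (1.33 to 1.46), S100a4 1.32 (1.20 to 1.45), S100a13 1.31 (1.26 to 1.36) and S100a16 1.31 (1.26 to 1.35). S100a1 was at 1.12 (1.07 to 1.17) and S100a6 at 1.10 (1.08 to 1.11). None passed 1.5-fold, the bound used for genes with at least 100 UMIs over both libraries, where 3.9% of 10181 genes were past it upwards. S100a8 was at 0.368 (0.318 to 0.426) and S100a9 at 0.506 (0.446 to 0.573), the 2 members past the bound downwards, against 15.2% of all genes. S100b had too few UMIs. The median log2 ratio of the 9 members was 0.38, that of all genes -0.13. A member median above that of all genes was not particular to the glia. In rod-like cells the 8 members with enough UMIs had a median of 0.61, all genes -0.15. In endothelial-like cells the medians were -0.29 for 8 members and -0.03 for all genes.

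Single cells moved both values, and S100a9 lost its place past the bound without 1 cell, while S100a8 kept it. Without the cell with most in each library the ratios were 0.608 (0.496 to 0.746) and 0.876 (0.738 to 1.04). Without the 5 top cells they were 0.624 (0.506 to 0.773) and 0.898 (0.751 to 1.08). The level per cell was then 1.04 UMIs of the pair in control and 1.05 in knockout cells, whose median depths were 14320 and 20120 UMIs.

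**Figure D4:**
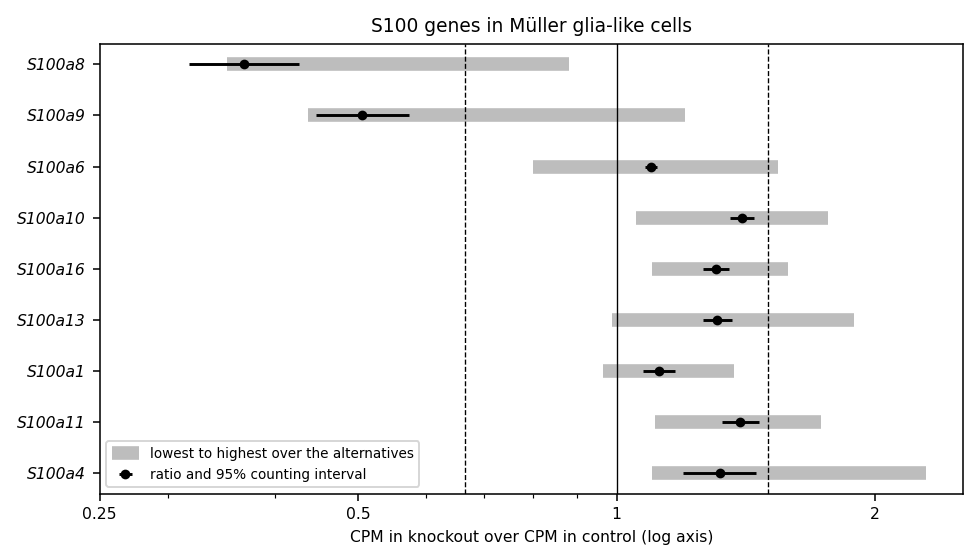
Ratio of CPM in knockout over control Müller glia-like cells (log axis) for the 9 members with at least 100 UMIs; black points and bars are the ratio and its counting interval, grey bars run from the lowest to the highest value over the alternative settings, and dashed lines mark 1.5-fold either way. The 7 glial members lie between 1.10 and 1.40, and the grey bars of S100a9, S100a6, S100a13 and S100a1 cross 1.

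The 2 libraries fill different clusters of the class. Of 346 control cells 129 were in non-neuronal cluster 5, which held only 5 knockout cells, and of 553 knockout cells 240 were in cluster 1, which held 40 control cells. Cluster 5, with the Müller genes Rlbp1 and Aqp4 among its leading genes, had the lowest control levels of the glial members. It also had the highest of S100a8 (188 CPM) and S100a9 (219 CPM), but these rest on 1 cell. That control cell held 250 of the 302 S100a8 UMIs and 290 of the 352 S100a9 UMIs. Control S100a6 stood at 625 CPM in cluster 5 against 5915 in cluster 1, S100a10 at 243 against 1387, and S100a13 at 175 against 677. Within clusters the S100a6 ratio was 0.875 (0.851 to 0.899) in cluster 1, 1.41 (1.30 to 1.54) in cluster 2, 0.419 (0.404 to 0.434) in cluster 3, 0.697 (0.669 to 0.727) in cluster 6 and 0.634 (0.599 to 0.671) in cluster 9. In cluster 5 it was 4.26 (3.68 to 4.93), on 5 knockout cells. S100a6 was thus lower in the knockout cells of 4 of the 6 clusters, and at 1.10 over the class as a whole.

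S100a10 within clusters 1, 2, 3, 6 and 9 was at 1.06 (1.01 to 1.13), 1.88 (1.61 to 2.21), 0.943 (0.893 to 0.995), 0.914 (0.830 to 1.01) and 1.15 (1.00 to 1.34) in that order, and in cluster 5 at 3.48 (2.67 to 4.48). Without cluster 5, a choice made with the data in view, the class ratios were 1.05 for S100a10, 1.11 for S100a11, 1.10 for S100a16 and S100a4, 0.988 for S100a13, 0.963 for S100a1 and 0.799 for S100a6. S100a9 was then at 1.20, above 1, with the control cell of 290 S100a9 UMIs left out too. Cells of cluster 2 were shallow, with medians of 1388 and 2738 UMIs against 23981 and 21913 in cluster 1.

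**Figure D5:**
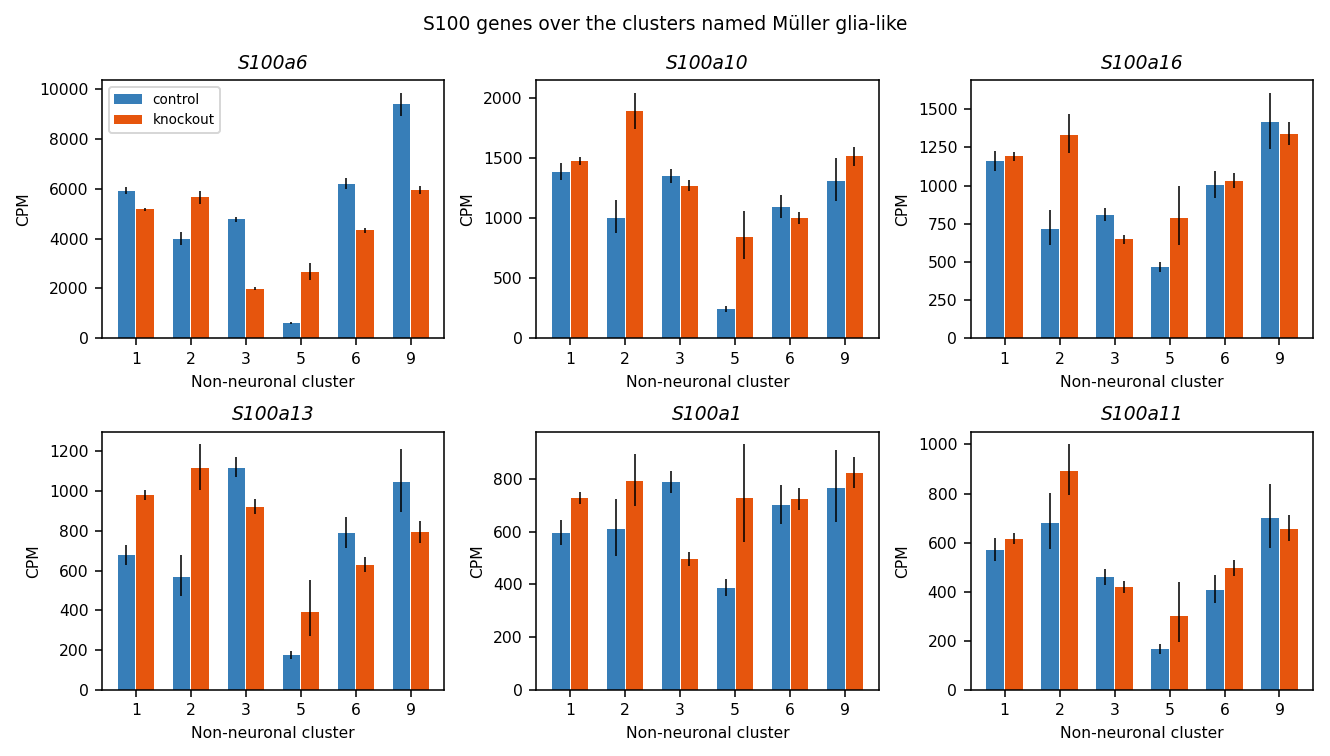
CPM of 6 glial S100 genes in the 6 non-neuronal clusters named Müller glia-like, control in blue and knockout in orange, with bars for the Poisson interval. Control cluster 5 has the lowest value of every gene shown, and S100a6 is lower in knockout cells in clusters 1, 3, 6 and 9.

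In neutrophil-like cells none of the 5 members with enough UMIs passed 1.5-fold, where 3.55% of 3214 genes were past it upwards and 15.3% downwards. S100a9 was at 1.36 (1.35 to 1.38), S100a8 at 1.33 (1.31 to 1.34), S100a6 at 1.27 (1.23 to 1.32), S100a11 at 1.25 (1.19 to 1.32) and S100a13 at 1.12 (0.818 to 1.52). The median log2 ratio of these 5 members was 0.35, that of all genes -0.11.

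S100a6 in neurons differed in both directions. It was higher in the knockout library in bipolar-like cells (12.5 and 26.9 CPM) and amacrine-like cells (14.8 and 23.4 CPM), and lower in cone-like cells (57.2 and 33.2 CPM; ratio 0.580, 0.349 to 0.942). In retinal ganglion-like cells the ratio of 3.53 became 0.799 without 1 cell. In the same libraries Müller glia-like cells gave 12.04% of control UMIs and 22.1% of knockout UMIs, and the part of this in the neuronal values was not tested.

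The receptors and partners were looked at in the same Müller glia-like cells. Of the 7 receptors and surface partners listed for S100a8 and S100a9, 5 had enough UMIs. Alcam was higher, at 2.07 (1.41 to 3.12) on 33 and 144 UMIs. In this class 3.9% of 10181 genes were past 1.5-fold upwards and 15.2% downwards. Tlr4 (6.73 and 7.40 CPM), Bsg (688 and 625 CPM), Nptn (114 and 121 CPM) and Mcam (27.3 and 20.01 CPM) lay between the bounds. Ager was at 3.65 and 2.92 CPM, on 19 and 32 UMIs. Tlr4 was far higher in neutrophil-like cells (219 and 302 CPM) than in the glia.

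Of 11 intracellular partners 10 had enough UMIs. Myh9, the non-muscle myosin that S100a4 binds, was higher at 1.77 (1.58 to 2.00), and none was lower. Over all genes of the class the shares were 3.9% upwards and 15.2% downwards. Anxa2, the partner of S100a10, was at 1.35 (1.26 to 1.44) over the class, close to S100a10 itself, but not within clusters. Control and knockout Anxa2 stood at 250 and 296 CPM in cluster 1, and at 20.6 and 185 in cluster 5 (5 knockout cells). It was lower in knockout in clusters 2 (357 and 219) and 9 (325 and 260), and near level in clusters 3 (325 and 317) and 6 (219 and 197). In cluster 2 S100a10 was at 1.88. Over the class, Vim (1.04) and Gfap (1.01), the intermediate filaments of reactive glia, were near 1, as were Anxa6 (1.00) and Cacybp (1.01). Within clusters, Gfap was lower in knockout in clusters 1 (279 and 227 CPM), 3 (325 and 252), 6 (399 and 175) and 9 (313 and 262). It was higher in clusters 2 (152 and 179) and 5 (24.9 and 139). Vim was lower in clusters 2 (1834 and 1248), 3 (1471 and 877), 6 (2100 and 1870) and 9 (3418 and 2378). It was level in cluster 1 (1809 and 1803) and higher in cluster 5 (1114 and 2131). Anxa1 (0.917), Anxa11 (0.871), Ahnak (0.843) and Stk38 (0.697) were below 1 but within the bounds. Among the 6 other S100 genes only S100a3 had enough UMIs, at 1.97 (1.30 to 3.06) on 29 and 120.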

How the data were processed

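The deposited matrices hold raw UMI counts per gene and barcode, which the authors made with Cell Ranger 6.0.0 on mm10, per the submitters' processing notes; Seurat 5.2.1 is named there too. Papain was used to dissociate the retinas for the 10x 3′ libraries, per the labels' protocols. The counts were used as deposited, and of repeated symbols the first was kept. Kept libraries held 43186222 and 49471662 UMIs.

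The members, lists and markers were chosen with earlier results of these data known. Cells with at least 500 genes and under 25% mitochondrial UMIs were clustered in Seurat 5.3.0 (R 4.3.3; 2000 variable genes, 11 components, resolution 1), as the series' design text states. All S100 genes were removed from the variable genes, so that classes do not rest on the members. Clusters outside the neurons were clustered again. Naming a cluster required 3 or more detected markers, that its best of 21 marker lists scored at least 1 (mean log2 fold with 5 CPM added) and led the next by 1, and that its top 10 genes did not favour another class; differences from the study may come from these rebuilt names. Scrublet (scanpy 1.11.5) called 0 cells as doublets in either library, so the caller has not worked and all cells stayed in.

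UMIs were summed per class and library and given as CPM with exact Poisson intervals. Ratios have exact conditional binomial intervals and shares Clopper-Pearson intervals, all at 95%. UMIs are molecules, but pooled retinas give 1 sample per group, so there is no test. Shares of cells were also taken after thinning to 1000 UMIs. Ratio code was tested on simulated data. Named were all members, genes of the other lists that reached 100 UMIs in the Müller class, and the gene most like each member; Ager, and genes of single cells such as Pax2, Retnlg and Lcn2, were added after their values were seen. Statistics were computed in scipy 1.17.1 (Python 3.11.15) and TMM factors in edgeR 4.0.16. Alternatives covered cell filters, clustering, class calls, scaling, thinning, doublet scores and free RNA.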

Additional observations from a re-analysis of the deposited data

Results flagged for a closer look

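Some members stood past 1.5-fold in one direction in one class and in the other direction in another, by their counting intervals. With 1 library per group the difference between classes was not tested. S100a8 was higher in knockout monocyte- and macrophage-like cells (ratio 3.06) and in the unnamed non-neuronal cluster 8 (3.06), and lower in Müller glia-like cells (0.368), endothelial-like cells (0.0283) and the unnamed non-neuronal cluster 7 (0.0966). S100a9 was higher in horizontal-like cells (2.72) and monocyte- and macrophage-like cells (2.55), and lower in Müller glia-like cells (0.506), endothelial-like cells (0.0231), cluster 7 (0.127) and cluster 8 (0.408). S100a6 was higher in bipolar-like (2.15) and retinal ganglion-like cells (3.53) and lower in endothelial-like cells (0.522).

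Many of these values rest on a few cells. Without the 5 cells with most UMIs of the gene in each library, S100a8 in monocyte- and macrophage-like cells stood at 0.563 (0.487 to 0.649) and in endothelial-like cells at 1.64 (0.819 to 3.47), and S100a9 in horizontal-like cells at 0.840 (0.430 to 1.66). In cluster 8 they stood at 1.46 (0.934 to 2.27) for S100a8 and 0.835 (0.526 to 1.30) for S100a9. S100a9 in monocyte- and macrophage-like cells stood at 1.32 (0.960 to 1.79), in Müller glia-like cells at 0.898 and in endothelial-like cells at 0.635 (0.355 to 1.12). S100a6 in retinal ganglion-like cells stood at 0.799 (0.379 to 1.77) without the top cell alone. By the ratio alone, S100a8 stayed past the bound in Müller glia-like cells, at 0.624 (0.506 to 0.773), and in cluster 7, at 0.393 (0.167 to 0.830). So did S100a9 in cluster 7, at 0.461 (0.207 to 0.932). The counting intervals of these values reached back inside the bound. S100a6 stayed past it by the interval too, in bipolar-like cells, at 2.30 (1.68 to 3.19), and in endothelial-like cells, at 0.468 (0.389 to 0.560).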

How the results depend on the processing

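No paired analysis was possible because each group has 1 library. No member passed 1.5-fold upwards in Müller glia-like cells, but 4 did with TMM scaling (which raises every log2 ratio by 0.20), 5 with the mean of per-cell CPM, 5 with the per-cell marker call, 3 with cells thinned to one depth, 1 without the 5 top cells and 4 with the unnamed clusters 7, 8 and 10 added. Downwards 2 passed, against 1 without the 5 top cells and 1 at clustering resolution 0.5. It was 0 with cells thinned, with free neutrophil RNA taken away, with clusters 7, 8 and 10 added, or without cluster 5, where S100a9 reversed to 1.20. With cells thinned, S100a8 at 0.506 and S100a9 at 0.566 had fewer UMIs than the minimum. Taking free neutrophil RNA away left no UMI of S100a8 or S100a9. The amount taken was scaled from the neutrophil markers. For the pair it was 125% (control) and 129% (knockout) of the UMIs counted. More was thus taken than was counted, so the scaling itself set what was left, and nothing is concluded from it. In other classes the scaled amount ran from 102% (knockout cone-like) to 709% and 1049% (control and knockout retinal ganglion-like) of the UMIs counted, among those looked at here. Both cluster alternatives were chosen after the data were seen, and leaving out cluster 5 also leaves out the control cell with 290 S100a9 UMIs. Of 128 member ratios over the alternatives, 69 stayed within the counting interval, 58 left it and 1 reversed; for S100a10, S100a11, S100a16 and S100a4 all were above 1.

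The share of S100a8 UMIs in neutrophil-like cells was 91.7% (control) and 91.0% (knockout) with at least 1000 genes and under 10% mitochondrial UMIs per cell, 83.4% and 88.1% with the per-cell marker call, and 90.8% and 92.5% without the highest doublet scores. For S100a9 the same settings gave 91.9% and 92.0%, 82.8% and 88.5%, and 90.5% and 93.3%. Clustering with the S100 genes, or at resolution 0.5, left both within their intervals. Cause was not tested where values moved.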
